A study of Mus musculus with 2 samples.

Results

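*Sdk1* and *Sdk2* encode the 2 mouse Sidekick proteins, and the question addressed here was where sites occupied by the transcription factor DLX2 lay in and around both genes. In the maxillary process, from which most of the upper jaw arises, 21 regions detected in both replicates lay inside these genes or within 100 kb of them, out of 10921 such regions in all. *Sdk1* with its flanks had 16 of them and *Sdk2* with its flanks had 5. *Sdk1* was chosen on its high number of linked shared regions in an earlier pass over the same peak lists, and *Sdk2* was added as the other family member. The numbers of shared regions are therefore a description, and none of them was tested.

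The data are DLX2 CUT&Tag peaks from maxillary process cells of wildtype C57BL/6 mouse embryos of stage E12.5. In CUT&Tag an antibody, here against DLX2, brings a transposase to its target in permeable cells, and the DNA it cuts there is sequenced, so that sites of the target appear as peaks of fragments. The 2 libraries form 1 group, numbered 1 and 2 by sample record, and nothing in the labels says whether they came from separate embryos. No control antibody, input or other genotype was analysed here. A peak averages all cells of the process, so that many cells with weak occupancy and few cells with strong occupancy cannot be told apart. No RNA was measured in these libraries, so the peaks say nothing of whether either gene was expressed.

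Sidekicks are large single-pass membrane proteins of the immunoglobulin superfamily, with a row of immunoglobulin domains and a row of fibronectin type III domains outside the cell. Each binds best to copies of itself on the neighbouring cell, and in the retina the pair is known for matching the synaptic partners that carry the same Sidekick. Their short tails bind MAGI scaffold proteins at synapses. DLX2 is a homeodomain protein of the distal-less family, best known in the head for patterning the pharyngeal arches and their derivatives.

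Both genes start in sequence rich in CpG. The 250 bases before each annotated start are shown because a shared region lay just inside *Sdk1*, whereas no peak of either replicate lay within 10 kb of the start of *Sdk2*. They come from RefSeq on GRCm38.p6, which is mm10, and are written 5′ to 3′ on the strand of the gene with each CpG in capitals. The first lies at chr5:141241284-141241533 on the plus strand and the second at chr11:114067030-114067279 on the minus strand.
Sdk1: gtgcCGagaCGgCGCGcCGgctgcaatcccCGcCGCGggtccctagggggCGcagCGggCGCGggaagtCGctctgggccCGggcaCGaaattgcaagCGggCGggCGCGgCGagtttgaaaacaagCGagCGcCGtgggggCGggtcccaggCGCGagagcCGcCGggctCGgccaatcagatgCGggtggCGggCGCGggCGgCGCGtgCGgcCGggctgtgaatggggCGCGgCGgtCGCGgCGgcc
Sdk2: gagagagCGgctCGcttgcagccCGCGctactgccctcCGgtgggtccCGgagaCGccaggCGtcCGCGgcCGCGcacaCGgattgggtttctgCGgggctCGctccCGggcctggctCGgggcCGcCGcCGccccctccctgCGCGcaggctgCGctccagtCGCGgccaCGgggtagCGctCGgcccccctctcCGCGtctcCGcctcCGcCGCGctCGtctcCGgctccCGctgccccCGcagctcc

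The *Sdk1* sequence held 44 CpGs at a GC content of 78.0%, and that of *Sdk2* held 38 at 78.8%. Across the 17492 protein-coding genes with such a sequence, the medians were 10 CpGs and 55.2%. On either strand, neither sequence held TAATTA, the core of DLX homeodomain sites, which 4.45% of all these sequences held. Neither held TGTGGT, a RUNX core, which was found in 12.49% of all, or CACGTG, an E-box, which was found in 6.64%. The absence of these letters from 250 bases says nothing about binding by the factors. The sequences under the peaks themselves were not analysed here.

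*Sdk1* (gene 330222) spans 974 kb of chromosome 5, from 141241497 to 142215586 in mm10, and runs on the plus strand. *Sdk2* (gene 237979) spans 291 kb of chromosome 11, from 113776374 to 114067029, and runs on the minus strand. *Sdk1* is thus 3.35 times as long as *Sdk2*. Exons were not analysed here, so positions are given as distances from the start site and not as exonic or intronic.

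Inside *Sdk1*, replicate 1 had 27 peaks and replicate 2 had 54. Inside *Sdk2*, the numbers were 9 in replicate 1 and 17 in replicate 2. In both genes replicate 2 had the larger number, as it did in the whole lists, which held 28061 peaks in replicate 1 and 62093 in replicate 2. Per Mb of gene, *Sdk1* had 27.7 replicate 1 peaks and *Sdk2* had 31.0. In replicate 2 the values were 55.4 per Mb in *Sdk1* and 58.5 per Mb in *Sdk2*. The mean peak density was 41.6 ± 19.6 per Mb (SD, n = 2) in *Sdk1* and 44.7 ± 19.5 per Mb (SD, n = 2) in *Sdk2*. Within each library, the density of peaks was slightly lower in *Sdk1*, at 0.895 times that of *Sdk2* in replicate 1 and 0.948 times in replicate 2. The SDs are between libraries with lists of unlike length, and do not measure the difference between the genes. That difference was not tested.

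The peaks that recurred in both replicates were counted next. A shared region is a stretch of 1 bp or more where peaks from both replicates overlap. *Sdk1* held 14 shared regions, or 14.4 per Mb (95% exact Poisson interval 7.86 to 24.1). *Sdk2* held 3, or 10.3 per Mb (interval 2.13 to 30.2). The shared number in *Sdk1* was 4.67 times that in *Sdk2*, and the shared density was 1.39 times as high. These intervals cover counting error only, and the first lies within the second. *Sdk1* is 3.35 times as long as *Sdk2*.

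In the window of *Sdk1*, that is the gene with 100 kb on each side, a replicate 2 peak met 16 of 31 replicate 1 peaks, or 51.6% (95% Wilson interval 34.8 to 68.0%). In the window of *Sdk2* this held for 5 of 16, or 31.2% (interval 14.2 to 55.6%). Over the whole lists 38.9% of replicate 1 peaks were met. Of the replicate 2 peaks, 16 of 71 were met in the *Sdk1* window, or 22.5% (interval 14.4 to 33.5%), and 5 of 27 in the *Sdk2* window, or 18.5% (interval 8.18 to 36.7%). The background there was 17.2%. These shares count the same shared regions that *Sdk1* was chosen on, and are given as a description.

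**Figure D1:**
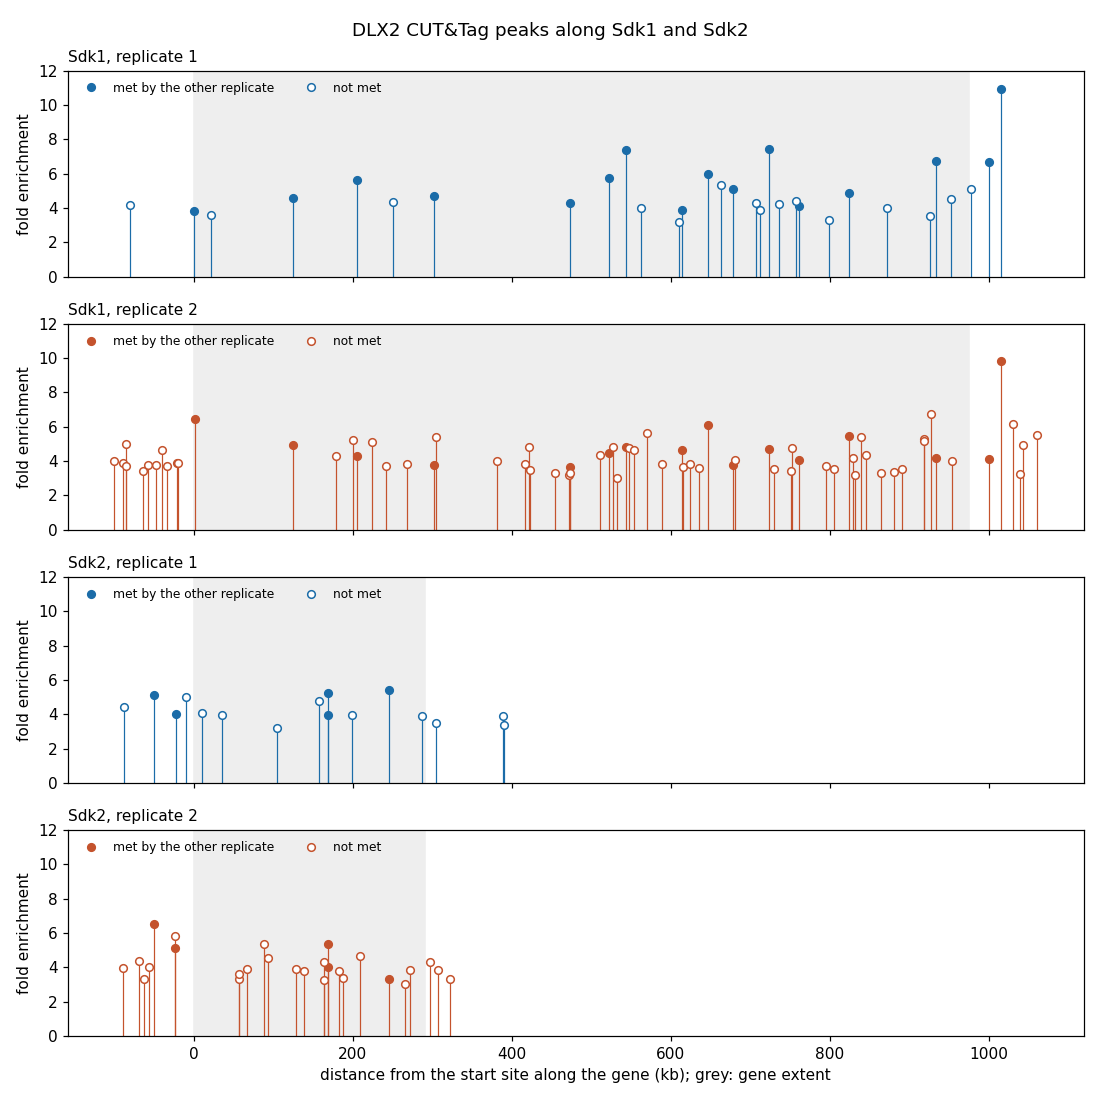
Each stem is a peak, drawn by its distance from the start site in kb (x axis) and its fold enrichment (y axis), with 1 panel per gene and replicate. Filled circles mark peaks met by the other replicate, open circles those not met, and grey marks the gene extent. The 14 shared regions inside *Sdk1* are spread along the gene, the strongest shared region lies beyond its end, and the 3 in *Sdk2* lie more than 168 kb from its start.

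The shared regions of *Sdk1* were spread along the gene rather than gathered at its start. The median distance between the centres of neighbours was 62.7 kb, with quartiles of 37.6 and 96.6 kb over 13 distances. No 2 neighbours lay within 10 kb of each other. The closest pair was 21.0 kb apart, at 522 and 543 kb from the start, and the widest gap was 170.9 kb, between regions at 302 and 473 kb. The SD of the distances was 0.610 times their mean. When the gene was split into 4 equal stretches from its start, these held 3, 2, 6 and 3 shared regions in turn. Replicate 1 had 4, 3, 11 and 9 peaks in the same stretches, and replicate 2 had 7, 11, 18 and 18. In each replicate the stretches nearer the end of *Sdk1* held more peaks than those nearer its start.

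In *Sdk2* the shared regions lay away from the start. The first was 168 kb into the gene, which left the 2 stretches nearest the start with 0 shared regions, although replicate 1 had 2 and 1 peaks there and replicate 2 had 3 and 4. The following stretches held 2 shared regions and 1. The pair in the third stretch was 0.625 kb apart, closer than any pair in *Sdk1*. Its members lay on chromosome 11 at 113898535 to 113898652 and at 113897876 to 113898061. The remaining one, at 113821351 to 113821499, was 45.1 kb from the end of the gene.

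The starts of the genes differed. At *Sdk1* the nearest peak of both replicates was the same site, on chromosome 5 at 141242584 to 141242765, with its centre 1.14 kb downstream of the start site. Its fold enrichment, which compares the summit with the background nearby, was 3.85 in replicate 1 and 6.44 in replicate 2. From these and the p-values of the peak caller, the summit was inferred to hold 5 fragments in replicate 1 and 14 in replicate 2. It was the strongest shared region inside *Sdk1* in replicate 2 and the weakest in replicate 1. At *Sdk2* the nearest replicate 1 peak was 10.03 kb upstream of the start site, with a fold of 5.02, and no replicate 2 peak met it. The nearest replicate 2 peak was 22.5 kb upstream and belonged to a shared region.

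The strongest shared region of either window was not inside a Sidekick gene. It lay 41.2 kb beyond the end of *Sdk1*, on chromosome 5 at 142256793 to 142257035. Replicate 1 gave a fold of 11.0 there and replicate 2 gave 9.83. Its summits, 39 bp apart, held 17 inferred fragments in replicate 1 and 24 in replicate 2. By the fold in the replicate where it was lower, it ranked 75 of 10921 shared regions. No annotated gene covered it. The region nearest the end of *Sdk1*, at 142240940 to 142241238, lay 25.4 kb beyond it with folds of 6.70 and 4.12. The next shared region on that side was 510 kb from the gene.

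Inside *Sdk1* the highest lower fold was at 141888011 to 141888171, 647 kb from the start, with 5.99 in replicate 1 and 6.11 in replicate 2. Both replicates thus gave a fold near 6 there, with 9 inferred fragments in replicate 1 and 16 in replicate 2. At 142065472 to 142065526 the folds were 4.89 and 5.47. At 141784418 to 141784701 they were 7.37 and 4.81, and at 141965008 to 141965244 they were 7.45 and 4.72. These last sites had the highest replicate 1 folds in the gene, at 11 fragments each, but only moderate folds in replicate 2. The other shared regions inside *Sdk1* had lower folds between 3.65 and 4.56. One of them, at 141366923 to 141367132, also lay within *Gm16035*, an annotated long noncoding RNA gene nested in *Sdk1*. Another, at 141919206 to 141919219, rested on peaks with 14 bp in common.

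Inside *Sdk2* no shared region had a lower fold above 4. The paired sites at 168 and 169 kb had folds of 3.98 and 5.33 at the first, and of 5.22 and 3.99 at the second, in replicates 1 and 2. The site near the end of the gene had 5.43 and 3.31. Each of the 3 was below a fold of 4 in 1 of the replicates. Upstream of *Sdk2* lay 2 more, at 114089548 to 114089870 with folds of 3.99 and 5.14, and at 114117227 to 114117303 with 5.12 and 6.52. The second of these, 50.2 kb before the start, was the strongest of the *Sdk2* window by the lower fold.

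Over the windows, the median lower fold was 4.23 for *Sdk1* (range 3.65 to 9.83, 16 regions) and 3.99 for *Sdk2* (range 3.31 to 5.12, 5 regions), beside 4.51 over all shared regions. Of the 16 regions of *Sdk1*, 6 lay above that series median, and of the 5 of *Sdk2*, 1 did. A fold of at least 5 in both replicates was reached by 2 of 16 and by 1 of 5, against 35.1% of all shared regions. A −log10 q of at least 5 in both was reached by 1 of 16 and by 0 of 5, against 15.6%. The 1 was the site beyond the end of *Sdk1*, so that no shared region inside either gene passed that threshold. *Sdk1* thus had many shared regions, and nearly all were of ordinary or low strength.

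The folds of the replicates were next set side by side. The fold was higher in replicate 1 at 9 of the 14 sites inside the gene and higher in replicate 2 at the other 5. Spearman's rho between the folds was 0.0637 over these 14 sites, 0.215 over the 16 of the window and 0.440 over all shared regions. All sites of a replicate share 1 library and its depth, and these are descriptions of the lists. The median fold inside *Sdk1* was 5.002 in replicate 1 and 4.56 in replicate 2, a mean of 4.78 ± 0.311 (SD, n = 2). Inside *Sdk2* it was 5.22 and 3.99, a mean of 4.61 ± 0.866 (SD, n = 2). The median was thus higher in *Sdk2* in replicate 1 and higher in *Sdk1* in replicate 2, and that of *Sdk2* rests on 3 regions.

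**Figure D2:**
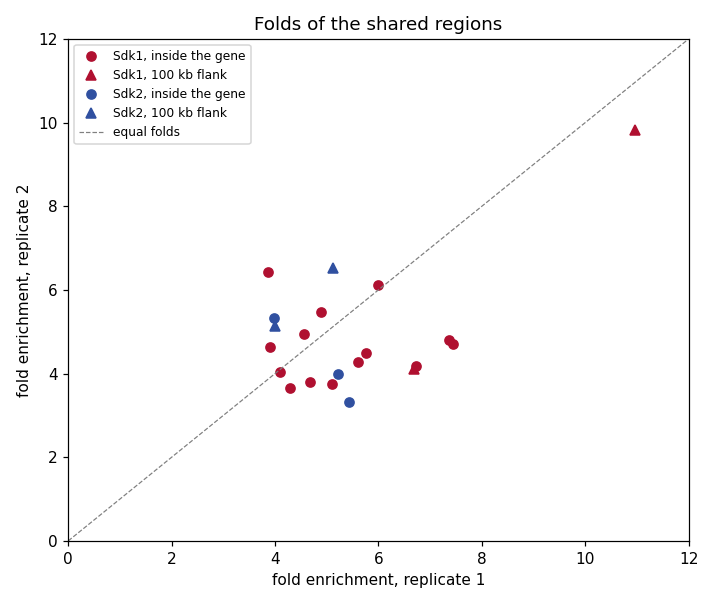
Each point is a shared region, with its fold enrichment in replicate 1 on the x axis and in replicate 2 on the y axis. Circles lie inside the genes, triangles in the 100 kb flanks, and the dashed line marks equal folds. Of the 21 regions, the site beyond the end of *Sdk1* stands apart at 11.0 and 9.83, and the other 20 lie below 7.5 in both replicates.

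The sites rested on few fragments. At the 14 shared regions inside *Sdk1*, the inferred number at the summit ranged from 5 to 11 in replicate 1 (median 7) and from 8 to 16 in replicate 2 (median 11). In *Sdk2* it ranged from 6 to 8 in replicate 1 and from 8 to 17 in replicate 2. Peaks of *Sdk1* without a counterpart had fewer, with a median of 5 fragments over 13 replicate 1 peaks and of 9 over 40 replicate 2 peaks. Their median folds were 4.03 and 3.92. Strength alone did not sort them, however. The strongest replicate 2 peak inside *Sdk1*, at 142167791 to 142168160, had a fold of 6.73 and 17 fragments, and no replicate 1 peak met it. Both values were above the replicate 2 values of every shared region of the gene. The summits of the replicates lay a median of 32.5 bp apart inside *Sdk1*, beside 63.0 bp over all shared regions. The largest distance there was 192 bp.

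*Sdk1* was then set beside other genes of its size class. Among the 227 protein-coding genes of at least 500 kb, the median density was 1.98 shared regions per Mb, with quartiles of 0.881 and 5.35. *Sdk1* was 9th by density and shared the 3rd place by number with *Cdh13*, which also held 14, and 3.96% of these genes, itself included, had its density or more. Densities in single libraries are not independent of this, because *Sdk1* was chosen on shared regions, which need a peak in each library. Its replicate 1 density of 27.7 per Mb was 12th, against a median of 6.44, and its replicate 2 density of 55.4 per Mb was 9th, against a median of 10.5. *Sdk2* also lay in the upper part of its class of 763 genes of 200 to 500 kb, though less far up by shared density than *Sdk1*. Its 10.3 shared regions per Mb stood against a median of 3.82 and an upper quartile of 8.09. Of the class, 16.4% had that density or more. Its single-library densities of 31.0 and 58.5 per Mb were 62nd and 96th, against medians of 11.2 and 24.0. Both lay above the upper quartile of the class in the same library.

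**Figure D3:**
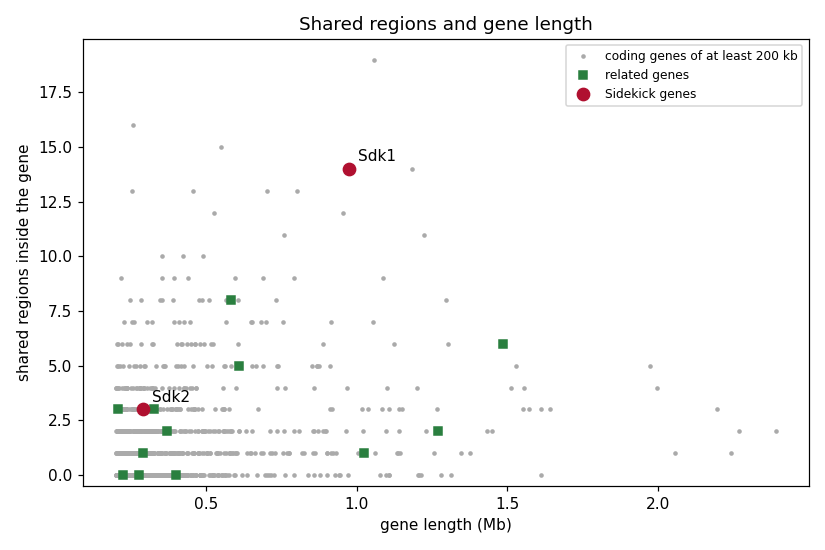
Each grey point is a protein-coding gene of at least 200 kb, with its length in Mb on the x axis and the number of shared regions inside it on the y axis. Green squares mark the related genes of that length and red circles the Sidekick genes. *Sdk1*, with 14, lies near the top among genes of its length, whereas *Sdk2*, with 3, lies among many others.

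The sequence around the genes also carried shared regions, in numbers that differed between the sides. These sides are unlike the inside of 1 gene, because they held several coding genes. There were 15 in the 1 Mb upstream of *Sdk1* and 14 downstream, and 17 upstream of *Sdk2* and 8 downstream. In the 1 Mb upstream of *Sdk1* there were 19 shared regions, and in the 1 Mb downstream there were 7, so that the 14.4 per Mb inside the gene lay between these values. Around *Sdk2* there were 27 in the 1 Mb upstream and 9 downstream, beside 10.3 per Mb inside, again between the values of the sides. In single libraries, *Sdk1* had 37 replicate 1 peaks upstream and 25 downstream, with 27.7 per Mb inside between them. In replicate 2 it had 80 upstream and 68 downstream, both above the 55.4 per Mb inside. *Sdk2* had 43 replicate 1 peaks upstream and 17 downstream, with 31.0 per Mb inside between them. In replicate 2 it had 72 and 61, both above the 58.5 per Mb inside. The 100 kb upstream of *Sdk1* held 0 shared regions, with 1 replicate 1 peak and 11 replicate 2 peaks. The first beyond the 100 kb limit lay 101 kb before the gene, with folds of 5.28 and 5.95. For *Sdk2* the last inside the limit was the site 50.2 kb upstream, and the first outside lay 138 kb upstream, with folds of 6.02 and 4.12.

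Local background was higher in both genes than over all peaks. At the peaks inside *Sdk1* the median inferred background was 0.584 fragments in replicate 1 and 1.51 in replicate 2, and inside *Sdk2* it was 0.656 and 1.81. Over all peaks it was 0.484 and 1.29. The lowest background in a library was the level at 27.5% of replicate 1 peaks and 32.6% of replicate 2 peaks, but at 2 of 27 and 6 of 54 in *Sdk1* and at none of those in *Sdk2*. The part of this higher local signal in the peak densities was not tested.

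Genes with the most similar pattern were found by the distance between log2(number per Mb + 1) of replicate 1 peaks, replicate 2 peaks and shared regions. For *Sdk1*, within its class of 227 genes, these were *Frmd4a* (distance 0.0894), *Kalrn* (0.151) and *Dlgap2* (0.181). They held 9, 8 and 11 shared regions, or 15.1, 13.2 and 14.5 per Mb. For *Sdk2*, within 763 genes, they were *Atp2b2* (0.0675), *Med13l* (0.158) and *Btbd11* (0.195), with 3, 2 and 3 shared regions. The densities of *Sdk1* thus had at least these counterparts among other long genes. They were picked for that likeness, so their similar densities are not a separate result.

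Genes related to the Sidekicks by structure or binding differed widely. Of 15 such genes, 10 held a shared region, against 14.6% of all 21779 protein-coding genes. Long genes hold one more often, at 78.9% of those of at least 500 kb and 62.4% of those of 200 to 500 kb, and most of the 15 are long. Their median density was 3.44 shared regions per Mb, below both Sidekick genes. *Dscam* and *Dscaml1* encode homophilic adhesion proteins of the same superfamily, which also take part in the wiring of the retina. *Dscam* held 8 shared regions, or 13.7 per Mb, and *Dscaml1* held 3, or 9.19 per Mb. Both values lay close to those of the Sidekick genes, at 14.4 per Mb in *Sdk1* and 10.3 per Mb in *Sdk2*.

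Among the contactins, axonal adhesion proteins held by a lipid anchor, densities were mostly low. *Cntn4* and *Cntn5* are each longer than *Sdk1*, at 1023 and 1271 kb, and held 1 and 2 shared regions, or 0.978 and 1.57 per Mb. *Cntn1* held 1, *Cntn6* held 2 and *Cntn3* held 0. *Cntn2* had the highest density of the list, 29.6 per Mb, but from 1 shared region in 33.8 kb. *Nfasc*, *Nrcam*, *Chl1* and *L1cam*, members of the L1 family of neural adhesion proteins, held 0 shared regions. Replicate 1 had 1 peak in *Nfasc*, 1 in *L1cam*, and 0 in *Chl1* and *Nrcam*. Replicate 2 had 9 peaks in *Nfasc*, 2 in *L1cam*, 1 in *Chl1* and 0 in *Nrcam*.

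The MAGI scaffolds bind the tails of Sidekicks. *Magi1* held 5 shared regions (8.22 per Mb), *Magi2* held 6 (4.04 per Mb) and *Magi3* held 3 (14.5 per Mb). *Magi2*, the longest gene of the list at 1485 kb, had 15 replicate 1 peaks and 20 replicate 2 peaks, fewer than *Sdk1* in each library. Only *Cntn2* and *Magi3* exceeded *Sdk1* in shared density, both from 3 or fewer regions.

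**Figure D4:**
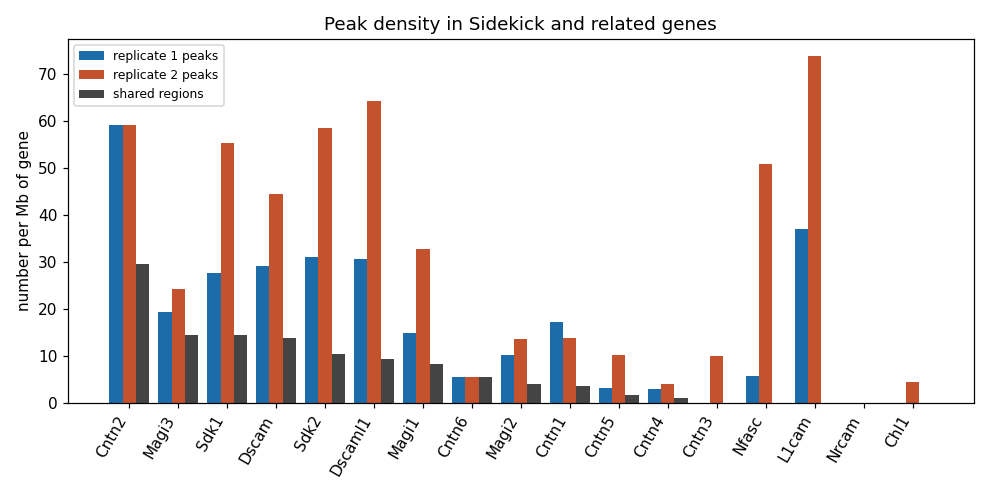
Bars give the number per Mb of gene of replicate 1 peaks (blue), replicate 2 peaks (orange) and shared regions (dark grey) in *Sdk1*, *Sdk2* and the 15 related genes, ordered by shared density. *Sdk1* (14.4), *Dscam* (13.7) and *Sdk2* (10.3) lie in the upper part of the order, and 5 genes have no shared region.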

How the data were processed

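Peaks were deposited for each library on its own, with no control named. The submitters' processing notes name Trim Galore 0.4.5, Bowtie 1.1.2, MACS2 2.2.7 and build mm10; the study's methods name bowtie2 and another Trim Galore version, and the caller's settings are not given in the sources used here. The labels describe sonicated nuclei and isolation with antibody, the methods a transposase kit. As deposited, each fold enrichment is a ratio within 1 library. The deposited −log10 p and −log10 q are the caller's own, and the deposited score restates the q. The deposited lists stop at a q of 0.1 and give no read totals. They hold more peaks per library than the study reports, and more regions were shared here than it reports. The shared regions here are therefore not the study's own set of common peaks.

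Fragments at a summit were inferred as the whole number k for which the fold is k + 1 over background + 1 and the p is a Poisson tail; within 0.001 this succeeded for 100% of peaks. The lowest background was 0.387 fragments in replicate 1 and 1.10 in replicate 2, taken as a measure of coverage. Genes were RefSeq extents of GRCm38.p6, less 340 genes listed before position 3000000. Start sites and strands came from the RefSeq promoter table. The members and gene lists were chosen with earlier results of these data known. Named by rule were the 5 strongest shared regions per window, those nearest each gene end, the closest pair and the widest gap, and the 3 genes nearest in density; the unmet peaks, the 1 Mb neighbourhoods and the local backgrounds were added after the values were seen. The overlap and inference steps were tested on simulated data. Intervals cover counting error only. Scripts ran under Python 3.11.15 with scipy 1.17.1, pandas 2.3.3 and numpy 2.4.6. Alternatives were a −log10 q or a fold of at least 5, 50% of each peak in common, summits within 150 bp, other flanks and each replicate alone.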

Additional observations from a re-analysis of the deposited data

How the results depend on the processing

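Of 64 alternative values, 28 stayed near the main value and 36 did not, by a limit of 1.5 times for numbers and densities, the 95% interval for shares and 1 SD between replicates for folds and spacing; for the *Sdk2* fold that SD was 0.0119. At a −log10 q of at least 5, the windows held 1 shared region (*Sdk1*) and 0 (*Sdk2*), both genes had 0 per Mb inside, 20% of replicate 1 peaks of the *Sdk1* window were met, the *Sdk1* median lower fold was 9.83 and 2 related genes held a shared region; the share and median for *Sdk2* and the spacing could not be computed. At a fold of at least 5, the windows held 2 and 1, the densities were 1.03 and 0 per Mb, 18.2% of *Sdk1* peaks were met, the median lower folds were 7.91 and 5.12 and 5 related genes held a region. With 50% of each peak in common, the windows held 9 and 2, the densities were 7.19 and 3.44 per Mb, the shares met were 29.0% and 12%, and the median distance in *Sdk1* was 171.4 kb. It was 48.8 kb with summits within 150 bp. Without flanks *Sdk2* had 3 regions with a median lower fold of 3.98. With 1 replicate alone, all its peaks enter: the *Sdk1* window held 31 to 71 and the *Sdk2* window 16 to 27, the densities were 27.7 to 55.4 and 31.0 to 58.5 per Mb, the *Sdk1* spacing was 11.0 to 23.7 kb, and the *Sdk2* median fold was 3.90 to 3.99. The lower numbers at a higher q or fold follow from fewer peaks entering, and those with 50% in common from the stricter overlap. The higher shared density of *Sdk1* than of *Sdk2* was lost at a −log10 q of at least 5, where both were 0, and reversed in each replicate alone. No paired analysis was possible because there is 1 group. With 2 libraries and no control, occupied sites and background shared by both cannot be told apart.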
